A study of Mus musculus with 7 samples.

Results

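The 7 mouse microRNAs mmu-miR-205, mmu-miR-203, mmu-miR-31, mmu-miR-224, mmu-miR-182, mmu-miR-183 and mmu-miR-96 are described here in whole kidneys of megabladder and wild-type mice. They were chosen by name, as microRNAs known from urothelium and stratified epithelium, out of 611 mouse microRNAs on the array. All 7 have probes on the array, and 5 of them had a signal that could be tested. Kidneys came from 4 wild-type males (mgb+/+, labelled normal kidney) and 3 megabladder males (mgb-/-, labelled obstructed kidney), with 1 array per mouse. The labels give the age as 4 weeks and the protocol as 3.5 to 4 weeks, and 100 ng of RNA per kidney was labelled for the array. The megabladder line forms a bladder wall without normal smooth muscle, and the kidneys drain against that obstruction. The series text speaks of 4 mutant kidneys; the megabladder mice are numbered 2 to 4, and mouse 1 was not analysed here.

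Urothelium is the layered lining of the renal pelvis, ureter and bladder. miR-205 is enriched in urothelium, skin and other layered epithelia, where it acts with the miR-200 family to hold down the repressors Zeb1 and Zeb2 and so to keep cells epithelial. miR-203 is known from the epidermis, where it limits p63 as cells leave the basal layer, and miR-31 is known from keratinocytes and hair follicles. miR-182, miR-183 and miR-96 are processed from one precursor transcript, best known from hair cells of the inner ear and from the retina. miR-224 lies in an intron of a GABA receptor gene beside miR-452.

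The mature sequences are shown because they tell the 7 apart and show which of them could share targets. They are written 5′ to 3′ as RefSeq gives them for GRCm38.p6, where all 7 matched, with the seed (bases 2 to 8), which does most of the pairing with a target, in capitals.
miR-205: uCCUUCAUuccaccggagucug
miR-203: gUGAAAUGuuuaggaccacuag
miR-31: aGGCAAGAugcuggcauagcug
miR-224: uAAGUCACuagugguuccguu
miR-182: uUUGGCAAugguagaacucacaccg
miR-183: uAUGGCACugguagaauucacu
miR-96: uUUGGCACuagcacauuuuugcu

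No seed was shared whole between any 2 of the 7. The pairs of miR-96 within its cluster come closest. miR-96 and miR-182 have 6 of 7 seed bases equal, in a run of 6 from base 2, and miR-96 and miR-183 also have 6 of 7 equal. miR-182 and miR-183 have 5 of 7 equal, as have miR-224 and miR-183. Among the other mature mouse sequences of the table, miR-1271-5p alone has the seed of miR-96, and none has that of the remaining 6. In the RefSeq annotation miR-205 lies on chromosome 1 within Mir205hg, miR-203 on chromosome 12 outside any spanning gene, miR-31 on chromosome 4 within Gm49890, and miR-224 on chromosome X within Gabre. miR-182, miR-183 and miR-96 lie together on chromosome 6 within Mirc35hg. Coordinates are not given, because the array files name another build.

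Each member was read by 2 probes, and miR-224 by 4, with up to 10 spots per probe and array (5 for miR-224). Signals are scanner units after dividing out each array's brightness, taken as the 75th percentile of the 292 probes that every array detected. A probe counts as above background on an array where at least 0.5 of its spots were well above it. A level is the mean log2 scaled signal over probes above background on at least 3 arrays, with signals below a floor of 11.4 units (3.51 on the log2 scale) set to that floor. Differences are megabladder minus wild-type.

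The arrays differed in brightness between genotypes before scaling. The scaling factors of wild-type arrays ran from 348.1 to 495.8 units and those of megabladder arrays from 223.5 to 333.4 units, with no overlap. Each genotype filled a slide row of its own, so row and genotype cannot be told apart. Among probes called above background, the lowest scaled signal was 12.0 to 13.8 units on megabladder arrays, 9.55 to 10.3 units on wild-type mice 1, 2 and 4, and 6.90 units on wild-type mouse 3, the brightest array. Of the listed tubule microRNAs, 7 of 8 were above background on every array, and miR-215 on none.

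None of the 5 tested members passed limma's test (adjusted p under 0.05), against 7 of 213 tested microRNAs, or 3.29%, and 2.82% that passed as higher. At an unadjusted p under 0.05 there were 2 members, miR-205 and miR-31, both higher in megabladder kidneys, against 23.0% of all tested microRNAs. The groups did not overlap for 1 member, miR-205, where 22.1% of all tested microRNAs showed no overlap and 18.8% did so with megabladder higher. The members' median difference was 0.11 log2 units, with 3 of 5 above 0, beside 0.09 for all 213. miR-205 and miR-31 entered the test mostly through megabladder arrays (3 of 3 beside 1 of 4, and 2 of 3 beside 1 of 4), so these counts support nothing about the list.

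**Figure D1:**
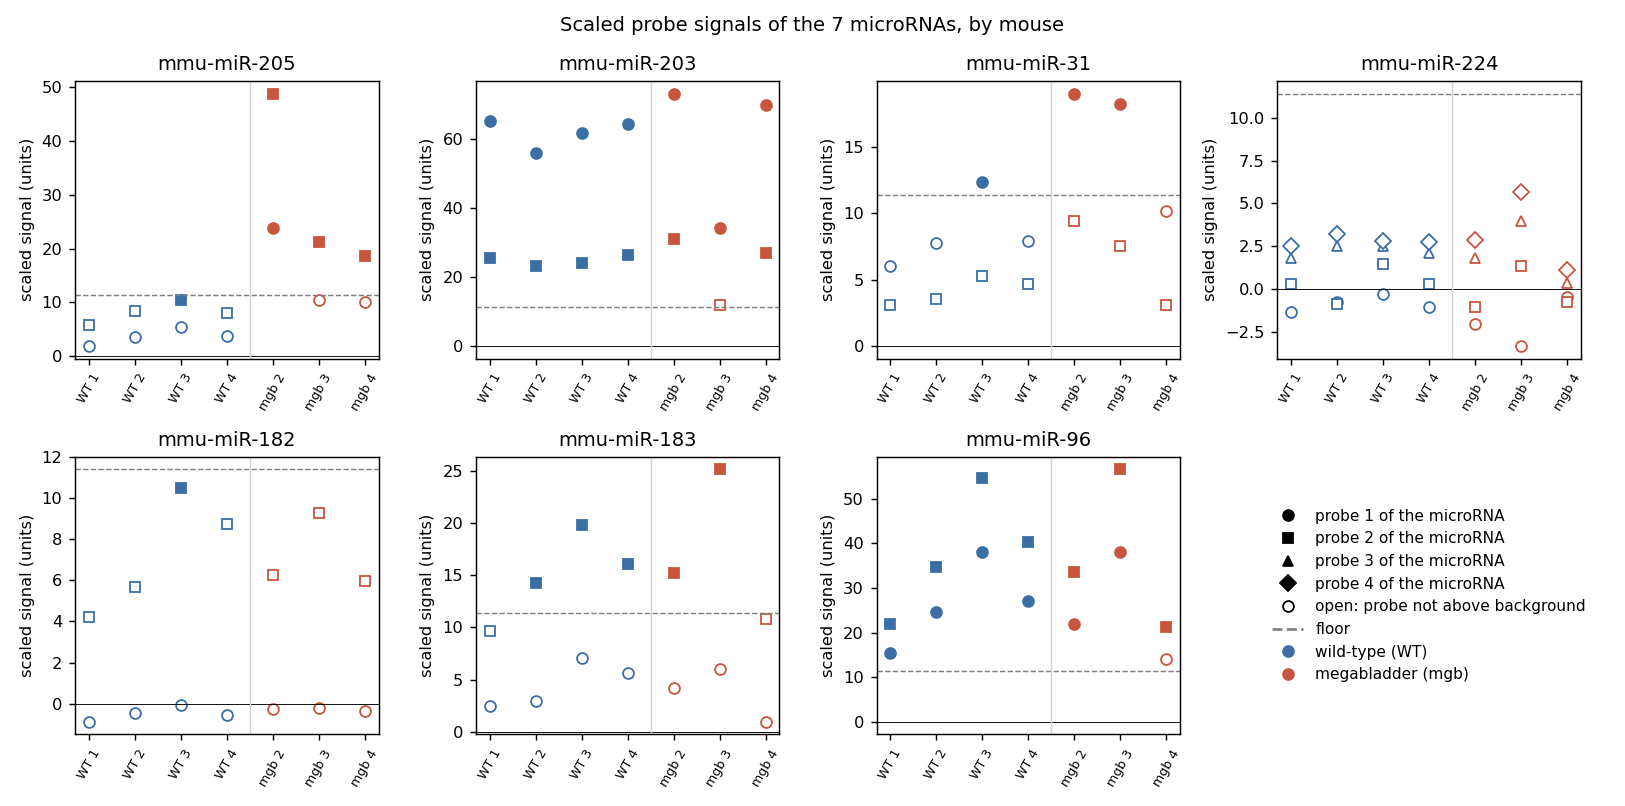
Scaled signal (units, vertical axis) of every probe of the 7 microRNAs in each mouse (horizontal axis; WT, wild-type; mgb, megabladder), with filled symbols for probes above background and a dashed line at the floor of 11.4 units. Both miR-205 probes lie higher in all 3 megabladder mice than in all 4 wild-type mice, while the probes of the other 6 overlap between genotypes.

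miR-205 was the member that separated the genotypes. Its brighter probe read 5.79, 8.31, 10.5 and 8.06 units in wild-type mice 1 to 4 and 48.8, 21.2 and 18.6 units in megabladder mice 2 to 4. The dimmer probe read 1.86, 3.53, 5.41 and 3.71 units in the wild-type mice and 23.8, 10.4 and 10.1 units in the megabladder mice. With both probes, every megabladder kidney lay above every wild-type kidney, and megabladder mouse 2 stood well above the other two megabladder mice. The 2-sided exact permutation p was 0.0286 for each probe, the smallest that the 35 splits of 7 arrays allow. By level, 18.8% of tested microRNAs had every megabladder kidney above every wild-type one. The 2 probes read the same RNA on the same arrays, so they do not count as 2 results. In bulk kidney RNA, more cells of a type and more of the microRNA per cell cannot be told apart.

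Pooled by genotype, detection was also higher in megabladder kidneys, though not mouse by mouse. Of miR-205 spots, 12 of 79 (15.2%) were well above background in wild-type kidneys and 38 of 57 (66.7%) in megabladder kidneys. With the brighter probe, 27 of 27 megabladder spots were above background and 10 of 39 wild-type spots, all 10 on wild-type mouse 3, the brightest array. With the dimmer probe, 11 of 30 megabladder spots were above background, 10 of them on megabladder mouse 2. Of its wild-type spots 2 of 40 were, each on mouse 3, beside 0 on megabladder mouse 3 and 1 on megabladder mouse 4. A probe above background on all 3 megabladder arrays and on at most 1 wild-type array was found for 3 of 611 mouse microRNAs (0.491%): miR-205, miR-197 and miR-764-5p. The reverse, all 4 wild-type arrays and at most 1 megabladder array, held for 5 (0.818%), none of them a member.

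**Figure D2:**
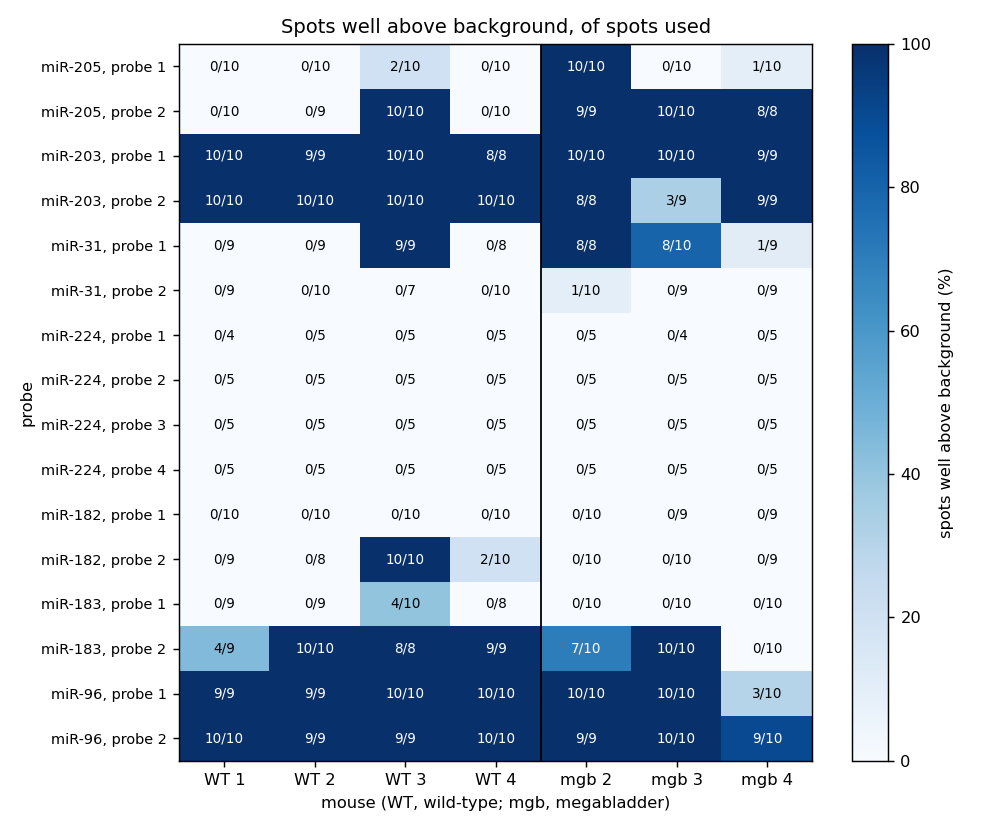
Number of spots well above background, of spots used, for each probe (vertical axis) and mouse (horizontal axis), with shading for the percentage. The brighter miR-205 probe is above background in 27 of 27 megabladder spots and, in wild-type, on mouse 3 only; miR-224 has no such spot on any array.

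As a level, miR-205 was at the floor in all 4 wild-type mice, mouse 3 included, whose 10.5 units counted as above background but lay under the floor, and at 5.61, 4.41 and 4.21 log2 units in megabladder mice 2, 3 and 4. The difference was 1.23 log2 units (SE 0.31, 95% interval 0.50 to 1.97), or 2.35-fold against the floor. It did not pass in limma (adjusted p = 0.0712), and the fit holds no spread among the wild-type values. miR-205 could be tested only because its brighter probe was above background on all 3 megabladder arrays, beside 1 wild-type array. The filter also left out the dimmer probe, and with both probes the difference was 0.79 log2 units, over 1.5 times smaller (adjusted p = 0.210 in limma, and 0.248 with no filter). The dimmer probe was not above background on any wild-type array and on 1 of 3 megabladder arrays.

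Without scaling the separation of the genotypes was lost for miR-205. Unscaled, the brighter probe read 6.54, 10.6, 15.0 and 8.10 units in the wild-type and 37.9, 20.5 and 12.0 units in the megabladder mice. Megabladder mouse 4 then lay below wild-type mouse 3, and the 2-sided exact permutation p was 0.0571. Without scaling, 2.35% of tested microRNAs had every megabladder kidney above every wild-type one, and miR-205 was not among them. The difference of miR-205 was 0.85 log2 units unscaled and lay 1.35 above the median difference of all microRNAs, which was -0.50.

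The mean of the miR-200 family, which marks epithelium in general, was also subtracted from the scaled levels. The level of miR-205 minus the family's mean was -4.58, -4.71, -4.66 and -4.62 log2 units in wild-type mice 1 to 4 and -2.53, -3.83 and -3.79 in megabladder mice 2 to 4. That is a difference of 1.26 log2 units with no overlap (2-sided exact permutation p = 0.0286), an alternative added after the data were seen. The wild-type values differ among themselves only by the family's mean, since miR-205 was at the floor in each. The separation was already set by the scaled levels and that floor, so the p adds no support here. Relative to the family 19.7% of tested microRNAs had all megabladder values higher. The 5 members of the family themselves had differences of -0.14 (miR-200a), -0.12 (miR-200b), 0.07 (miR-200c), 0.0031 (miR-141) and 0.06 (miR-429), and none passed.

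**Figure D3:**
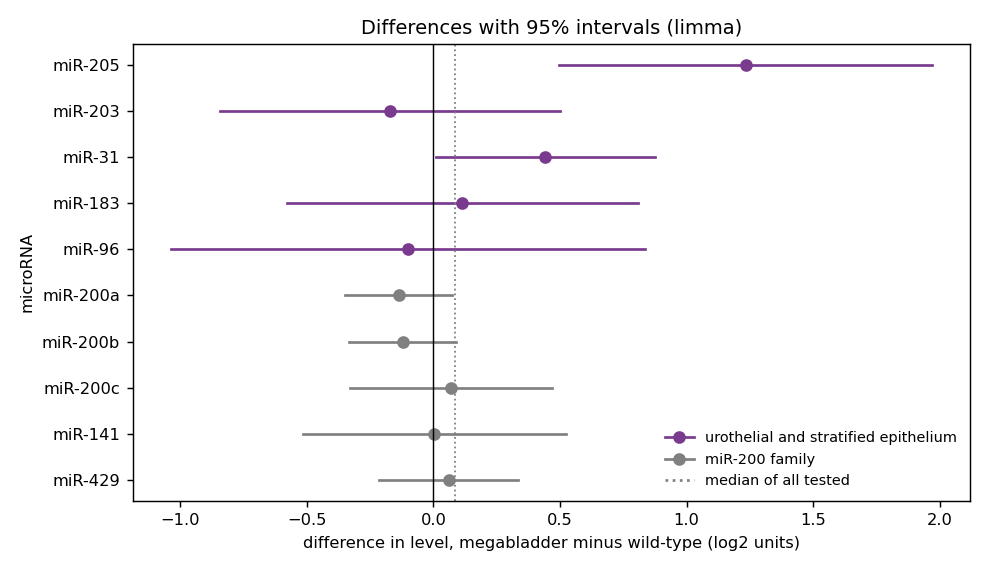
Difference in level (log2 units, horizontal axis) with its 95% interval from limma for the 5 tested members and the 5 miR-200 family microRNAs (vertical axis); the dotted line is the median of all 213. The interval of miR-205 runs from 0.50 to 1.97 and that of miR-31 from 0.01 to 0.87, and all others span 0.

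Over 23 alternatives with no block by mouse number the difference of miR-205 stayed above 0, from 0.37 to 2.32 log2 units, with adjusted p in limma from 0.0511 to 0.510. The smallest value came with a floor 2 times as high and the largest with the software's total signal per microRNA. Without megabladder mouse 2 the difference was 0.80 log2 units (interval 0.55 to 1.06), more than 1.5 times smaller, with an adjusted p of 0.0511 in limma. With a floor of 1 unit, which lets the wild-type values spread, it was 1.75 log2 units (adjusted p = 0.0899).

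**Figure D4:**
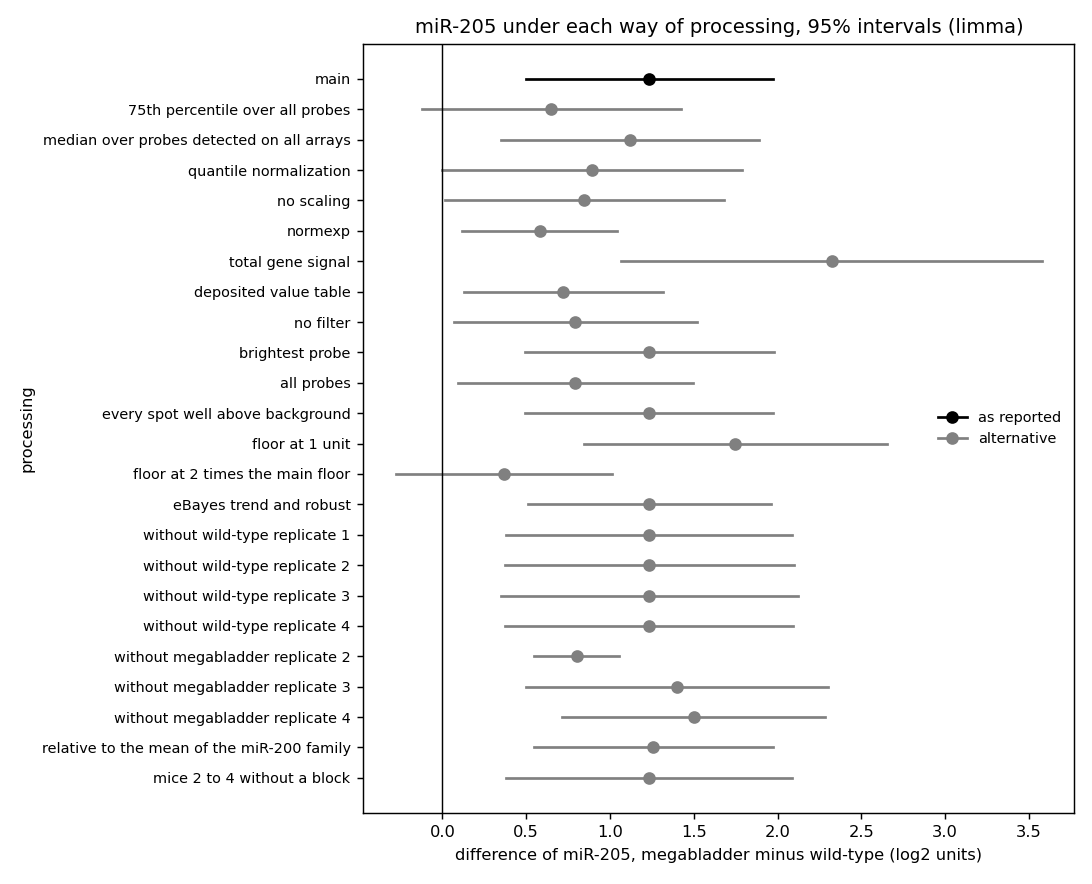
Difference of miR-205 (log2 units, horizontal axis) with its 95% interval from limma under the processing reported and 23 alternatives (vertical axis). Every point lies above 0, from 0.37 to 2.32, and the interval reaches below 0 with scaling over all probes, quantile normalization and the higher floor.

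Markers of other tissues were read beside miR-205. MicroRNAs of smooth muscle, a tissue of the walls of bladder, ureter and renal pelvis, had 2 of 5 members tested (miR-143 and miR-145), with summed signals of 150 to 190 units in wild-type kidneys, against 166 to 207 units with the mutation. Of the other 3, miR-133a was above background on no array, and miR-1 and miR-133b each on 1 array of each genotype. The 4 stromal microRNAs, all above background on every array, summed to 280 to 378 units in wild-type kidneys, against 353 to 575 units with the mutation. Both sums overlapped between genotypes. The smooth muscle sum, like miR-205, was highest in megabladder mouse 2, but so was the sum of the tested tubule microRNAs (4187 units). The next highest smooth muscle sum, 190 units, was in wild-type mouse 1, and megabladder mouse 4 had 166 units. The stromal sum was highest in megabladder mouse 3. The part of these tissues in the miR-205 result was not tested. Neuronal miR-124 and miR-9 were above background on no array, and hepatic miR-122 and islet miR-375 each on 1 megabladder array.

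miR-31 was dim in both genotypes. Its brighter probe read 6.04, 7.77, 12.4 and 7.90 units in wild-type mice 1 to 4 and 19.0, 18.2 and 10.2 units in megabladder mice 2 to 4. Megabladder mice 2 and 3 lay above all wild-type mice, and megabladder mouse 4 lay below wild-type mouse 3. Spots well above background numbered 9 of 71 in wild-type kidneys, all on mouse 3, and 18 of 55 in megabladder kidneys, of which 16 were the brighter probe on mice 2 and 3.

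The level of miR-31 was at the floor in wild-type mice 1, 2 and 4 and in megabladder mouse 4. It was 3.63 in wild-type mouse 3, 4.25 in megabladder mouse 2 and 4.19 in megabladder mouse 3. The difference was 0.44 log2 units (interval 0.01 to 0.87), with an adjusted p of 0.214 in limma and a 2-sided exact permutation p of 0.143. Without megabladder mouse 4 it was 0.68 log2 units and passed (adjusted p = 0.0265 in limma), where 2.83% of tested microRNAs did. That was the 1 pass in 21 alternatives with no block by mouse number, over which the adjusted p ran up to 0.969. Leaving out that mouse removed the megabladder value at the floor, while 3 of 4 wild-type values stayed equal at the floor. The SE was then 0.080, beside 0.18 with all mice. The 2 megabladder mice left were also 2 of the 3 arrays that let miR-31 into the test, so nothing is drawn from the pass. With scaling over all probes the difference was 0.013 log2 units. Relative to the miR-200 family its level was -4.58, -4.71, -4.55 and -4.62 log2 units in wild-type mice 1 to 4 and -3.89, -4.05 and -4.49 in megabladder mice 2 to 4, with no overlap (2-sided exact permutation p = 0.0286). Among all tested microRNAs, 19.7% had every megabladder value higher relative to the family. The 4 mice at the floor differ there only by the family's mean. The place of megabladder mouse 4 above the wild-type mice is thus not a measured signal of miR-31. The lack of overlap and its p rest on that place, so nothing is drawn from them. The genotypes overlapped unscaled, at 6.83 to 17.7 units in wild-type kidneys, against 6.59 to 17.6 units with the mutation.

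miR-203 was above background on every array with its brighter probe, which read 65.0, 55.9, 61.7 and 64.3 units in wild-type mice 1 to 4 and 73.0, 34.2 and 69.6 units in megabladder mice 2 to 4. Megabladder mouse 3 stood apart, below every wild-type mouse, and the other two megabladder mice lay above them all. The second probe had the same highest and lowest mice, at 23.2 to 26.4 units in wild-type kidneys and 31.0, 12.0 and 26.9 units in the megabladder mice, with 3 of 9 spots above background on megabladder mouse 3.

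The level of miR-203 was 5.29 ± 0.09 log2 units (SD, n = 4) in the wild-type mice and 5.12 ± 0.68 (SD, n = 3) in the megabladder mice. The difference of -0.17 (interval -0.84 to 0.50) did not pass in limma (adjusted p = 0.820). It turned to 0.22 without megabladder mouse 3, and to 0.31 with normexp background correction. Unscaled, both probes were lower in every megabladder kidney than in every wild-type kidney, and miR-203 passed as lower at -0.78 log2 units (adjusted p = 0.0397 in limma). Unscaled values carry the dimmer megabladder arrays with them: 32.4% of tested microRNAs passed there, 42.3% had no overlap between genotypes, and miR-203 lay -0.28 from a median of -0.50.

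By correlation of levels over the 7 arrays, the microRNAs most like miR-203 were miR-192 (r = 0.99), miR-374 (0.97) and miR-221 (0.95). miR-192, abundant in the proximal tubule, was at 10.07 to 10.19 log2 units in wild-type kidneys and at 10.35, 9.50 and 10.30 in megabladder mice 2, 3 and 4. Megabladder mouse 3 was thus low for both. Without that mouse r between miR-203 and miR-192 was 0.92 over 6 mice, and without the 2 mice farthest from the median of miR-192 it was 0.85 over 5. The correlations are descriptions, since all levels of an array share its RNA, its position and its scaling.

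The miR-183 cluster varied among mice of one genotype by more than between genotypes. miR-96 read 21.9, 34.6, 54.6 and 40.3 units with its brighter probe in wild-type mice 1 to 4 and 33.5, 56.6 and 21.3 units in megabladder mice 2 to 4. Wild-type mouse 3 and megabladder mouse 3 were the highest, and wild-type mouse 1 and megabladder mouse 4 the lowest. The level was 4.91 ± 0.54 log2 units (SD, n = 4) in the wild-type mice and 4.81 ± 0.71 (SD, n = 3) in the megabladder mice. The difference of -0.10 (interval -1.04 to 0.83; adjusted p = 0.929 in limma) was small beside the range of 1.31 log2 units within the wild-type group.

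miR-183 read 9.64, 14.3, 19.8 and 16.0 units in wild-type mice 1 to 4 and 15.2, 25.1 and 10.8 units in megabladder mice 2 to 4 with its brighter probe. The mice stood in the order they had for miR-96, apart from neighbours: wild-type mouse 1 changed places with megabladder mouse 4, and wild-type mouse 2 with megabladder mouse 2. Its level was 3.91 ± 0.33 log2 units (SD, n = 4) in the wild-type mice and 4.03 ± 0.58 (SD, n = 3) in the megabladder mice, with wild-type mouse 1 and megabladder mouse 4 at the floor. The difference was 0.11 (interval -0.58 to 0.81, adjusted p = 0.905 in limma). It turned negative under some other scalings, down to -0.47 with scaling over all probes, but was 0.023 with scaling by the median of detected probes. It was also negative without wild-type mouse 1 (-0.021) or megabladder mouse 3 (-0.20), and positive without any other single mouse.

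miR-182 was above background on 1 array only, wild-type mouse 3, and so was not tested. Its brighter probe read 4.22, 5.66, 10.5 and 8.76 units in wild-type mice 1 to 4 and 6.25, 9.25 and 5.96 units in megabladder mice 2 to 4. Here too wild-type mouse 3 and megabladder mouse 3 were the highest of their genotypes. Spots well above background numbered 12 of 77 in wild-type and 0 of 57 in megabladder kidneys. The 2-sided exact permutation p of that probe's scaled signal was 1.00, with means of 7.28 units in wild-type and 7.15 units in megabladder kidneys. The scaled signals of the genotypes thus overlapped, although the detected spots were all in wild-type kidneys.

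Correlations within the cluster were high across mice. Over the 7 arrays the levels of miR-183 and miR-96 correlated at r = 0.95 (Spearman's rho 0.95), and at 0.92 without the 2 mice farthest from the median of miR-96. Of 212 tested microRNAs compared with miR-96, miR-183 had the highest correlation. After taking each genotype's mean away, r was 0.98. Between the brighter probes of the cluster, scaled signals correlated at 0.83 for miR-182 and miR-183, 0.90 for miR-182 and miR-96, and 0.96 for miR-183 and miR-96. The miR-182 probe was above background on 1 of the 7 arrays, so its correlations describe signal that mostly did not count as detected. miR-96 and miR-183 also had miR-362-3p in common among their 3 most similar microRNAs (r = 0.93 and 0.91), so high correlations over these 7 arrays were not confined to the cluster.

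**Figure D5:**
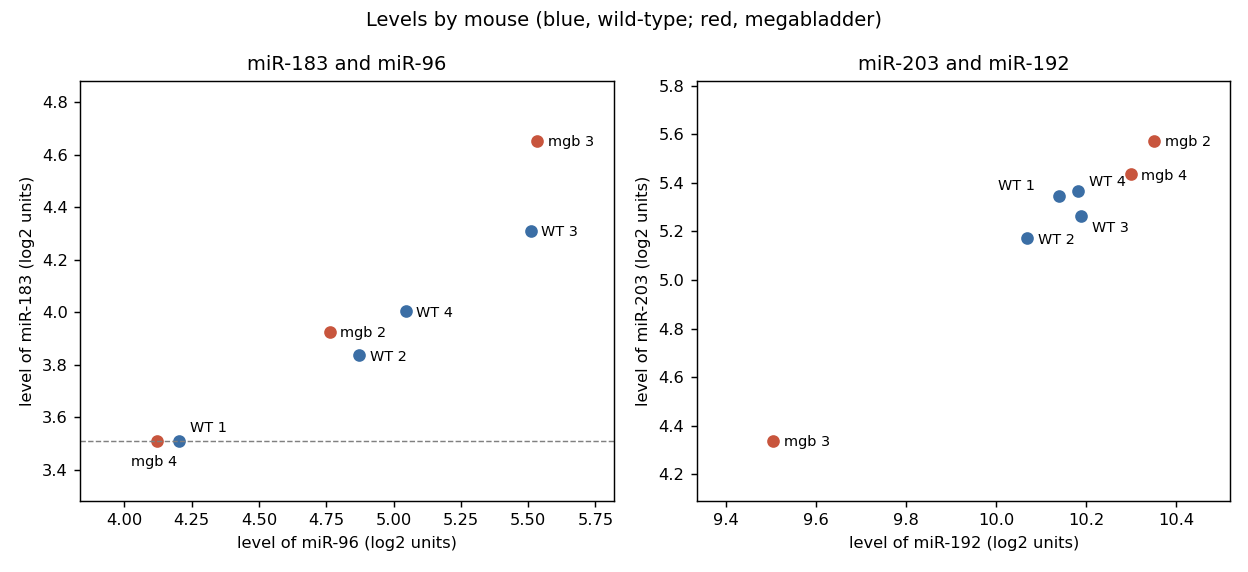
Levels (log2 units on both axes) of miR-183 against miR-96 and of miR-203 against miR-192, 1 point per mouse, blue for wild-type and red for megabladder; the dashed line is the floor. In the first panel the genotypes are mixed along the trend (r = 0.95), and in the second megabladder mouse 3 lies far below the other 6 for both microRNAs.

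Among the 10 pairs of tested members the correlation of levels ran from -0.74 (miR-203 and miR-183) to 0.95 (miR-183 and miR-96). miR-205 and miR-31 correlated at 0.84, and at 0.65 after taking each genotype's mean away. miR-31 also correlated with miR-183 at 0.57 and with miR-96 at 0.40, and at 0.67 and 0.66 after taking the means away. miR-205 and miR-203, both known from layered epithelium, correlated at 0.06. The microRNAs most like miR-205 were miR-361 (r = 0.92), miR-297a* (0.92) and miR-30b* (0.91). These values rest partly on the floor, which held miR-205 on 4 of 7 arrays, miR-30b* on 5 and miR-297a* on 2. For miR-31 the closest was miR-205. Both were at the floor in wild-type mice 1, 2 and 4, so their correlation rests partly on the floor too.

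miR-224 was not above background with any of its 4 probes: 0 of 79 spots in wild-type and 0 of 59 in megabladder kidneys. Its scaled signals lay between -3.30 and 5.67 units, below the floor on every array, so it has no level here. In this it was like most of the array, where 60.6% of mouse microRNAs had no probe above background on any array. Of 9 listed relatives of the members, 4 are on the array: the opposite arms miR-203*, miR-31* and miR-183*, and miR-452 of the miR-224 locus. None of their spots was well above background on any array.

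The members just inside and just outside the limit for testing, 3 arrays above background, were miR-31 with 3 arrays and miR-182 with 1. Beyond them miR-205 had 4 arrays, miR-183 5, miR-203 and miR-96 all 7, and miR-224 none. Over the 7 arrays the scaled signals of the 2 probes of one microRNA correlated at 0.985 for miR-203 and 0.997 for miR-96, whose probes were both above background on most arrays. The correlation was 0.997 for miR-205, whose dimmer probe was above background on 1 array, and 0.929 for miR-31 and 0.831 for miR-183, whose dimmer probes were above background on none.

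In the authors' deposited table of values, whose lowest value is 20, miR-205 was listed at 20, 26, 35 and 29 in wild-type mice 1 to 4 and at 63, 41 and 34 in megabladder mice 2 to 4. Megabladder mouse 4 lay just below wild-type mouse 3, as in the unscaled signals. miR-203 was listed at 67 to 94 in wild-type kidneys and at 81, 50 and 69 in megabladder kidneys, and miR-224 at 20 throughout. miR-96 was listed at 20 on all 7 arrays, while the software's total signal for it ran from 15.0 to 85.1 units on those arrays. The table's names and values were out of step near its end: after the first 532 of 650 names, 21 of 23 names above 20 carried values close to the signal of the preceding name, and 10 of the 23 were close to their own.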

How the data were processed

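Small RNA in total RNA of whole kidneys was labelled with Cy3 and read on 1-colour Agilent mouse microRNA arrays, 1 per mouse. The authors obtained spot intensity from Agilent Feature Extraction, version 10.7.3.1 in the submitters' processing notes, and the processed signal is background-subtracted with no scaling between arrays, per the file headers. A second deposited table lists intensity per microRNA, scaled by a method not given in the sources used here. It served as an alternative for names before its break.

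Control spots were dropped, as were outlier spots (3.45% to 3.77% of each array), and saturation was flagged on no spot. Spots of a probe were averaged, scaled, floored and put on a log2 scale. All 213 microRNAs with a probe above background on at least 3 arrays were fitted in R 4.3.3 with limma 3.58.1 (lmFit, then eBayes), and p-values were adjusted over all 213 by Benjamini and Hochberg. The script was tested on simulated data drawn with no floor, so that test does not cover levels set to the floor. Single values were tested with exact permutations. No depth applies to arrays; their number limits the precision.

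The members, lists, alternatives and named microRNAs (all members, their relatives on the array, the miR-200 family, and the 3 tested microRNAs most correlated with each tested member) were chosen with earlier results of these data known. A few further names were picked with their values in view. The 25 alternatives changed the scaling, the kind of signal, the background correction, the filter, the floor or the test, added a block, or left out a mouse. For normexp, with an offset of 50, the median spot signal stood in for the mean. Figures were drawn with matplotlib 3.10.9.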

Additional observations from a re-analysis of the deposited data

Results flagged for a closer look

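One of 22 measures checked over the 4 wild-type mice had a single mouse apart from the rest, where chance gives about 1 in 20. The level of miR-31 was 3.63 log2 units in wild-type mouse 3, and the other 3 wild-type mice were at the floor of 3.51. The gap is measured against 3 equal values at the floor, so the chance rate cannot be set against it. That array had the highest scaling factor, 495.8 units, and its part in the value was not tested.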

How the results depend on the processing

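Of 213 microRNAs, 7 passed in limma as reported. The count was 0 with scaling over all probes, quantiles, normexp, total gene signal, a floor of 1 unit or values relative to the miR-200 family, 1 with the deposited table, no filter or all probes of each microRNA, 2 with median scaling, 4 with the filter on all arrays, and 69 unscaled. Without single mice it ran from 0 to 19: 19 without megabladder mouse 3, 6 without megabladder mouse 4, 1 without wild-type mouse 4, and 0 without wild-type mouse 1, 2 or 3 or megabladder mouse 2. At an unadjusted p under 0.05 the settings with 0 had 107, 45, 35, 26, 30 and 44, and those 4 mice 47, 46, 26 and 32. Of the members 0 passed as reported, 1 unscaled (miR-203, lower) and 0 to 1 leaving out single mice. No sign changed for miR-205 over 24 alternatives or miR-31 over 22. miR-183 turned to -0.47 with scaling over all probes, -0.34 with quantiles, -0.25 unscaled and -0.19 in the deposited table, and ran from -0.20 to 0.37 without single mice. miR-203 turned to 0.31 and miR-96 to 0.40 with normexp, which moved the median of all to 0.35; without single mice they ran from -0.40 to 0.22 and from -0.47 to 0.24. The cause was not tested. miR-31 was at the floor throughout with the higher floor, and only miR-203 and miR-96 entered with the filter on all arrays. Dim signal limits miR-205, miR-31, miR-182 and miR-183.

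With the mouse number as a replicate block (mice 2 to 4), 28 microRNAs passed, among them 1 member, miR-205 (1.23, adjusted p = 0.0463 in limma), and miR-183 stood at -0.021. The same mice without a block, chosen after seeing the data, gave 0 (47 at an unadjusted p under 0.05), with miR-183 also at -0.021. That is the fit without wild-type mouse 1 under another name, not a separate check. The labels do not tie same-numbered mice together: their deviations correlated at -0.19, 0.0042 and 0.34, and 2 of 6 mice correlated best with their own number.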
